A study of Mus musculus with 8 samples.

Results

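The genes for galanin, neurotensin, the tachykinins, cholecystokinin, neuromedin U, neuropeptides B and W and nucleobindin 2, with the receptors *Galr1* and *Cckbr*, were examined in the hypothalamus (HT) of adult male C3H/HeN mice. Members were chosen by name: every probe of the array files that is not a control spot and carries the name *Gal*, *Galr1*, *Nts*, *Tac1*, *Cck*, *Cckbr*, *Nmu*, *Npb*, *Npw* or *Nucb2*. This gave 13 probes for 10 genes, of 55681 probes and 22328 named genes on the array. *Npb* had 3 probes, *Cckbr* had 2 and each of the other genes had 1.

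The MS group (labelled Stress) held 4 mice that had been taken daily from their dam between postnatal day (PND) 2 and PND 14, while the dam went through an unpredictable stress of its own. The control group (Ctrl) held 4 mice whose litters had been left undisturbed. All mice were weaned on PND 21, had performed the operant food task as adults and were food-deprived before culling. Each HT was hybridised on 1 array with a single dye, all on the same slide. The labels name the mice MS 5.3, 7.1, 7.2 and 7.6 and control 6.2, 8.2, 8.4 and 8.5. The meaning of the first part of these numbers is unknown here, so p-values measure only the spread between these mice, some of which may share a litter or a cage.

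Neuropeptides are cut from longer precursor proteins in the secretory granules of neurons, mostly at pairs of basic residues, and act on G protein-coupled receptors of other cells. In the hypothalamus of rodents, galanin and neuropeptide W are known for effects on feeding, and neurotensin, cholecystokinin, neuromedin U and nesfatin-1, a fragment of nucleobindin 2, for lowering food intake. The tachykinin gene *Tac1* encodes substance P and neurokinin A, which signal in pain, stress and reproductive circuits.

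The probes are 60 bases long, and 3 of them are shown because they lie in the precursors' coding sequence and show which part of the peptide message was measured. Sequences are written from 5′ to 3′ as the array files give them, and capitals mark neighboring codons for basic residues in an open reading frame of the probe.

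*Gal* A_51_P258281: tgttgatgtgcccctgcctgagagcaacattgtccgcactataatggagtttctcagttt

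*Nts* A_51_P485756: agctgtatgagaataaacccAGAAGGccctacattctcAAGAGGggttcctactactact

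*Nmu* A_55_P2050944: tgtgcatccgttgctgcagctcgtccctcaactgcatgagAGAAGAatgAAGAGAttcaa

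The *Gal* probe (mm9, chr19:3411143-3411202, minus strand) has 0 such pairs and falls in the part of the precursor that follows galanin, the galanin message-associated peptide. The *Nts* probe (chr10:101944967-101945026, minus strand) has 2 pairs, of which the first lies inside neurotensin itself and the second is the cutting site at its end. The *Nmu* probe (chr5:76769788-76769847, minus strand) also has 2 pairs, and its last bases open the sequence of neuromedin U.

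The probes below are shown because they cross a splice junction, so that their 60 bases are spread over a longer stretch of the genome.

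*Cckbr* A_51_P506201: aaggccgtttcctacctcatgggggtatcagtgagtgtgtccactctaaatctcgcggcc

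*Nucb2* A_51_P193336: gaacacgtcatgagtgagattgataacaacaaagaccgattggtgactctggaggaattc

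The *Cckbr* probe spans 220 bases of the genome (chr7:112582327-112582546, plus strand), and the *Nucb2* probe spans 4064 bases (chr7:123672564-123676627, plus strand). The second *Cckbr* probe, A_52_P596375, lies farther along the same gene (chr7:112584581-112584640) and crosses no junction. An annotation of mm9 was not used here, so exons are not numbered.

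No member passed the test between MS and control mice. Of the 13 probes, 0 reached an adjusted p under 0.05 (limma, Benjamini-Hochberg), as did 0 of all 37314 probes tested (0%), and adjusted p of the members ran between 0.989 and 0.998. The smallest adjusted p over all probes was 0.135. At an unadjusted p under 0.05 there were 0 of the 13 members, against 1270 of all probes (3.4%), of which 374 (1%) were higher and 896 (2.4%) lower in MS mice. In the exact permutation test over the 70 assignments of the mice, two-sided p was between 0.0571, for *Tac1*, and 1, for *Cck*, where 0.0286 is the smallest possible. The values of the groups overlapped in all 13 member probes, whereas they were apart in 756 of all probes (2.03%), with MS mice above in 294 (0.788%) and below in 462 (1.24%). The log2 fold change, MS minus control, was above 0 in 5 member probes and below 0 in 8, with a median of -0.025 beside -0.0012 over all probes.

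The values below are the log2 of the processed signal minus the 75th percentile of the array, so that 0 is a probe as bright as that percentile. Probes bind their targets with different strength, so a value is compared between mice and never between probes. All 13 probes were well above background on all 8 arrays. The 95% confidence interval of the difference stayed within a 2-fold change for all 13 probes, within a 1.5-fold change for 12 and within a 1.2-fold change for 3. Of all probes tested, 94.8%, 84% and 41.3% had intervals within these limits.

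**Figure D1:**
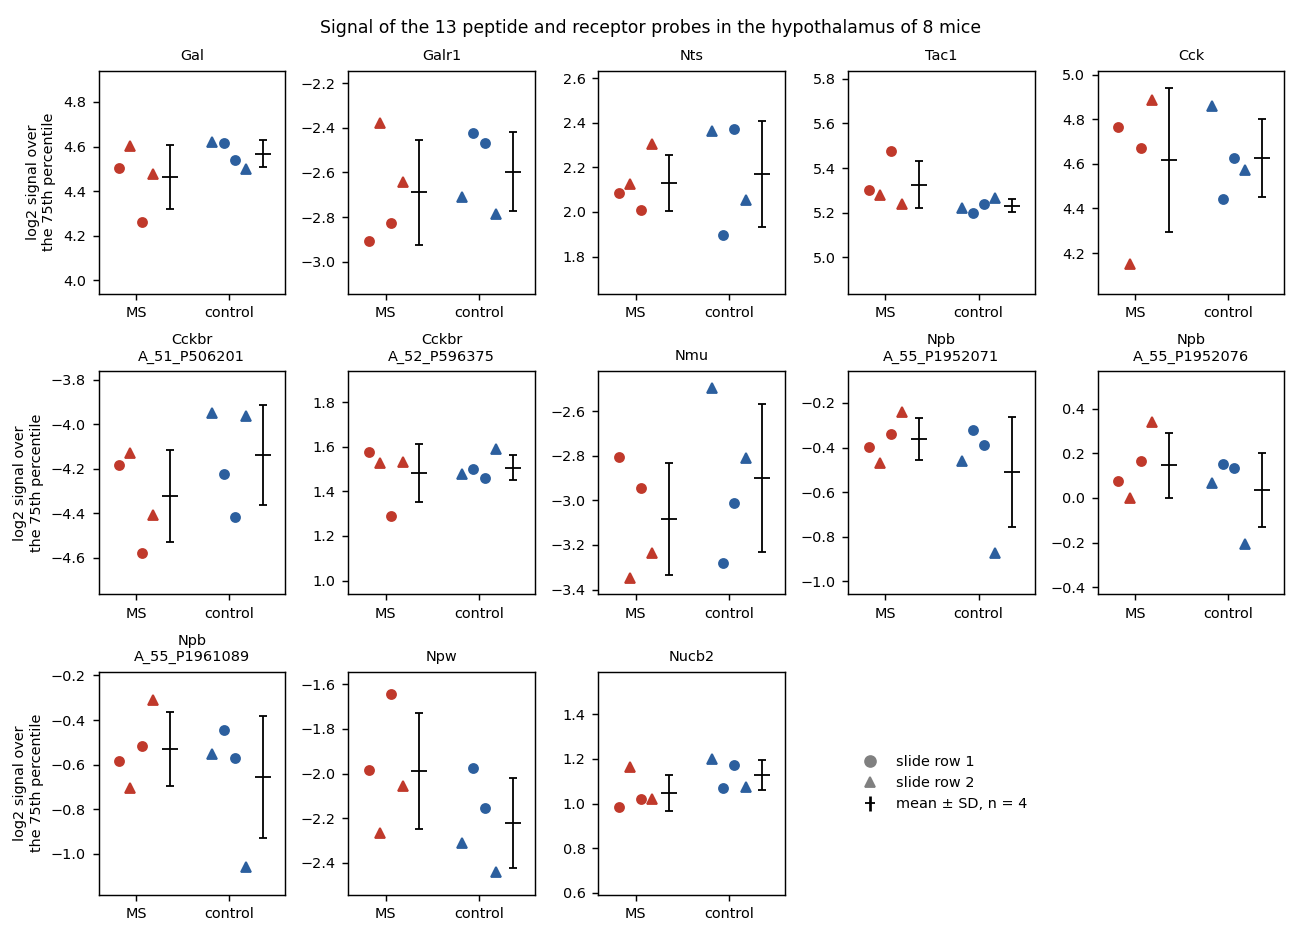
Signal of each member probe in each mouse (log2 over the 75th percentile of the array), with MS mice in red on the left and control mice in blue on the right, row 1 of the slide as circles, row 2 as triangles, and the mean ± SD of 4 mice in black. Every panel spans the same height, and in each of the 13 panels the groups overlap.

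The arrays and the tissue were examined first. The 75th percentile of the signal was between 499 and 902 in MS mice and between 751 and 856 in control mice, and MS 7.6 was the dimmest array. Of 14 hypothalamic marker genes, 13 were well above background on all 8 arrays and *Otp* was on 4. Their summed level, in units of the 75th percentile, was between 401 and 578 in MS mice and between 500 and 573 in control mice, with MS 7.2 lowest. *Slc17a7*, which marks neurons of the cortex, was above background on 0 arrays. The 8 pituitary markers summed to between 22.1 and 33.4 in MS mice, and to 298 in control 6.2 against 20.1 to 38.1 in the other control mice. In whole tissue, fewer cells of a type and less RNA per cell cannot be told apart.

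*Gal*, the gene for galanin, read 4.50, 4.60, 4.26 and 4.48 in MS 5.3, 7.1, 7.2 and 7.6, against 4.62, 4.62, 4.54 and 4.50 in control 6.2, 8.2, 8.4 and 8.5. MS 7.2 had the lowest value of the 8 mice, and MS 5.3 and 7.1 lay inside the range of the control mice. Its log2 fold change was -0.11 (SE 0.08), with a 95% confidence interval of -0.29 to 0.08 (limma, adjusted p = 0.989). Without MS 7.2, which also had the lowest summed level of hypothalamic markers, it was -0.04. That sum was 401 in MS 7.2 and 421 in MS 5.3. The brightest markers, such as *Avp* and *Oxt*, weigh most in this sum. The single markers differed: in MS 7.2 *Pmch*, *Trh* and *Nr5a1* were the lowest of the 8 mice, at 5.97, 3.50 and 2.05. *Hcrt* was low as well, at 3.54, and lower only in MS 5.3, at 3.46. The dim marker *Sim1*, at -3.33, was the only listed marker with its highest value in MS 7.2. Whether the amount of hypothalamic tissue had a part in the *Gal* difference was not tested.

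*Galr1*, an inhibitory receptor of galanin, read -2.91, -2.38, -2.83 and -2.64 in MS 5.3, 7.1, 7.2 and 7.6, against -2.71, -2.42, -2.47 and -2.78 in control 6.2, 8.2, 8.4 and 8.5. The MS mice held both the lowest and the highest value, and the control mice lay between them. This gave a log2 fold change of -0.09 (SE 0.13; 95% confidence interval -0.40 to 0.21).

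*Galr2*, the galanin receptor that couples to phospholipase C, had the smallest p of the partner genes with higher values in MS mice. It read -2.45, -2.57, -2.62 and -2.22 in MS 5.3, 7.1, 7.2 and 7.6, against -2.88, -2.80, -2.94 and -2.64 in control 6.2, 8.2, 8.4 and 8.5. All MS values were above all control values, though by a narrow margin between MS 7.2 and control 8.5. MS minus control, the log2 fold change was 0.35 (SE 0.10; 95% confidence interval 0.11 to 0.59), with an unadjusted p of 0.0102 and an adjusted p of 0.989 in limma. The difference was 0.33 among the mice of slide row 1 and 0.36 among those of slide row 2.

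*Nts*, the gene for neurotensin, read 2.09, 2.12, 2.01 and 2.30 in MS 5.3, 7.1, 7.2 and 7.6, against 2.36, 1.89, 2.37 and 2.05 in control 6.2, 8.2, 8.4 and 8.5. The control mice fell into a higher and a lower pair, and the MS mice lay between the ends of the control range. The SD was 0.13 in MS mice and 0.24 in control mice (n = 4 each). The log2 fold change was -0.04 (SE 0.12; 95% confidence interval -0.32 to 0.24).

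*Tac1* read 5.3, 5.28, 5.48 and 5.24 in MS 5.3, 7.1, 7.2 and 7.6, against 5.22, 5.20, 5.24 and 5.27 in control 6.2, 8.2, 8.4 and 8.5. The control mice differed little, with an SD of 0.03 (n = 4), and only MS 7.6 among the MS mice lay within their range. Its log2 fold change was 0.09 (SE 0.07; 95% confidence interval -0.06 to 0.24), with an unadjusted p of 0.188 and an adjusted p of 0.989 in limma. Without MS 7.2 the log2 fold change was 0.04.

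*Tacr3*, the receptor that neurokinin B prefers, had lower values in MS mice with an unadjusted p of 0.0189 and an adjusted p of 0.989 (limma). It read -1.38, -1.11, -1.02 and -1.31 in MS 5.3, 7.1, 7.2 and 7.6, against -1.08, -0.87, -0.90 and -0.83 in control 6.2, 8.2, 8.4 and 8.5. Control 6.2 lay among the MS mice, and the other control mice were above all of them. This gave a log2 fold change of -0.29 (SE 0.10; 95% confidence interval -0.51 to -0.06). *Tac2*, the gene for neurokinin B itself, had a log2 fold change of 0.09 (SE 0.08; 95% confidence interval -0.10 to 0.29), and its groups overlapped.

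*Cck*, the gene for cholecystokinin, read 4.76, 4.15, 4.67 and 4.88 in MS 5.3, 7.1, 7.2 and 7.6, against 4.86, 4.44, 4.63 and 4.57 in control 6.2, 8.2, 8.4 and 8.5. The MS mice held both the highest value, in MS 7.6, and the lowest, in MS 7.1. MS minus control, the log2 fold change was -0.01 (SE 0.16; 95% confidence interval -0.38 to 0.37), and it was 0.15 without MS 7.1.

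*Cckbr* encodes the cholecystokinin receptor that prevails in the brain, and its probes were on different parts of the transcript. A_52_P596375 read 1.58, 1.53, 1.29 and 1.53 in MS 5.3, 7.1, 7.2 and 7.6, against 1.48, 1.5, 1.46 and 1.59 in control 6.2, 8.2, 8.4 and 8.5, and apart from the low value of MS 7.2 the MS mice lay within the control range. Its log2 fold change was -0.03 (SE 0.08; 95% confidence interval -0.20 to 0.15), and it was 0.04 without MS 7.2. The probe across the junction read -4.18, -4.13, -4.58 and -4.41 in MS 5.3, 7.1, 7.2 and 7.6, against -3.95, -4.23, -4.42 and -3.96 in control 6.2, 8.2, 8.4 and 8.5. MS 7.2 was again the lowest mouse, and control 6.2 and 8.5 were above all MS mice. The log2 fold change of the junction probe was -0.19 (SE 0.14; 95% confidence interval -0.50 to 0.13).

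*Nmu*, the gene for neuromedin U, varied most among the member probes, with an SD of 0.29 over the 8 mice. It read -2.80, -3.35, -2.94 and -3.23 in MS 5.3, 7.1, 7.2 and 7.6, against -2.49, -3.28, -3.01 and -2.81 in control 6.2, 8.2, 8.4 and 8.5. Control 6.2 had the highest value, and it is also the mouse with the high level of pituitary markers. The log2 fold change was -0.18 (SE 0.18; 95% confidence interval -0.61 to 0.24) in all mice and -0.05 without control 6.2, and the part of pituitary tissue in it was not tested.

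*Nms*, which encodes neuromedin S, a ligand of the same receptors made in the suprachiasmatic nucleus, had the smallest p of the partner genes. It read -4.03, -3.08, -3.13 and -3.41 in MS 5.3, 7.1, 7.2 and 7.6, against -2.39, -2.30, -1.97 and -2.54 in control 6.2, 8.2, 8.4 and 8.5. All MS mice were below all control mice. Its log2 fold change was -1.11 (SE 0.22; 95% confidence interval -1.61 to -0.61), with an unadjusted p of 9.0e-04 and an adjusted p of 0.989 in limma. The size depended on the processing, at -0.66 with normexp and quantile normalization and -0.78 in the authors' table, and on the row, at -1.44 in row 1 and -0.78 in row 2. The 6 markers of the suprachiasmatic nucleus, *Nms* among them, summed to 5.66 to 6.42 in MS mice and 5.86 to 7.79 in control mice. *Rorb* was the largest part of each sum, which hides the spread of dimmer markers. *Vip* ran between -2.79 and -1.28 in MS mice and between -3.66 and 0.98 in control mice, with a log2 fold change of -0.74. The log2 fold changes of *Prok2*, *Six6*, *Rorb* and *Lhx1* were 0.06, -0.08, -0.07 and 0.14. The part of these markers in the difference of *Nms* was not tested.

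*Npb* encodes neuropeptide B, and its 3 probes lie next to each other on chromosome 11 (mm9, plus strand), where A_55_P1952076 and A_55_P1961089 share 53 bases and are not separate evidence. A_55_P1952071 read -0.40, -0.47, -0.34 and -0.24 in MS 5.3, 7.1, 7.2 and 7.6, against -0.46, -0.32, -0.39 and -0.87 in control 6.2, 8.2, 8.4 and 8.5. A_55_P1952076 read 0.08, 0.002, 0.17 and 0.34 in the MS mice and 0.07, 0.15, 0.13 and -0.21 in the control mice, in the same order. A_55_P1961089 read -0.58, -0.70, -0.52 and -0.31 in the MS mice and -0.55, -0.45, -0.57 and -1.06 in the control mice. All 3 probes were lowest in control 8.5 and highest in MS 7.6, and the other mice of both groups lay close together. Their log2 fold changes were 0.15 (SE 0.12), 0.11 (SE 0.11) and 0.13 (SE 0.14), and without control 8.5 they were 0.03, 0.03 and -0.01.

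*Npw*, the gene for neuropeptide W, had the largest difference and the smallest limma p of the members. It read -1.99, -2.27, -1.64 and -2.06 in MS 5.3, 7.1, 7.2 and 7.6, against -2.31, -1.97, -2.16 and -2.44 in control 6.2, 8.2, 8.4 and 8.5. MS 7.2 was above all other mice and control 8.5 below them, with the rest of the groups interleaved. This gave a log2 fold change of 0.23 (SE 0.15; 95% confidence interval -0.11 to 0.57), with an unadjusted p of 0.154 and an adjusted p of 0.989 in limma. With the row of the slide as a block the unadjusted p of *Npw* was 0.0487 (adjusted p = 0.974), so that 1 of the 13 members was under 0.05, beside 1424 of the 37314 probes. The difference was 0.12 without MS 7.2 and 0.33 without MS 7.1.

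*Nucb2*, the gene for nucleobindin 2, varied least, with an SD of 0.08 over the 8 mice. It read 0.98, 1.17, 1.02 and 1.02 in MS 5.3, 7.1, 7.2 and 7.6, against 1.2, 1.07, 1.17 and 1.07 in control 6.2, 8.2, 8.4 and 8.5. MS 7.1 lay within the control range and the other MS mice just below it. MS minus control, the log2 fold change was -0.08 (SE 0.06; 95% confidence interval -0.23 to 0.06).

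Ligands and receptors that act with the members were taken from a list of 18 partner genes, each represented by its brightest tested probe. All 18 had a probe and 15 were tested, whereas *Tac4*, *Nmur1* and *Npbwr1* were above background on 2, 1 and 3 arrays only. Of the 15, 0 passed the test in either direction, with 8 log2 fold changes above 0, 7 below and a median of 0.02. 3 had an unadjusted p under 0.05 (*Galr2*, *Tacr3* and *Nms*), beside 3.4% of all probes, and the groups did not overlap in 2 (*Galr2* and *Nms*), beside 2.03% of all probes. The other 11 besides *Tac2*, which were *Galp*, *Spx*, *Galr3*, *Ntsr1*, *Ntsr2*, *Sort1*, *Tacr1*, *Tacr2*, *Cckar*, *Nmur2* and *Nucb1*, had log2 fold changes between -0.04 and 0.08. A second probe of *Tacr2*, the neurokinin A receptor, was above background in 1 MS mouse and 3 control mice only. Its log2 fold change was -0.48 (limma, unadjusted p = 0.0149, adjusted p = 0.989), against 0.05 for the brightest *Tacr2* probe. Because it was so dim, its value is not read as a difference of the gene.

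**Figure D2:**
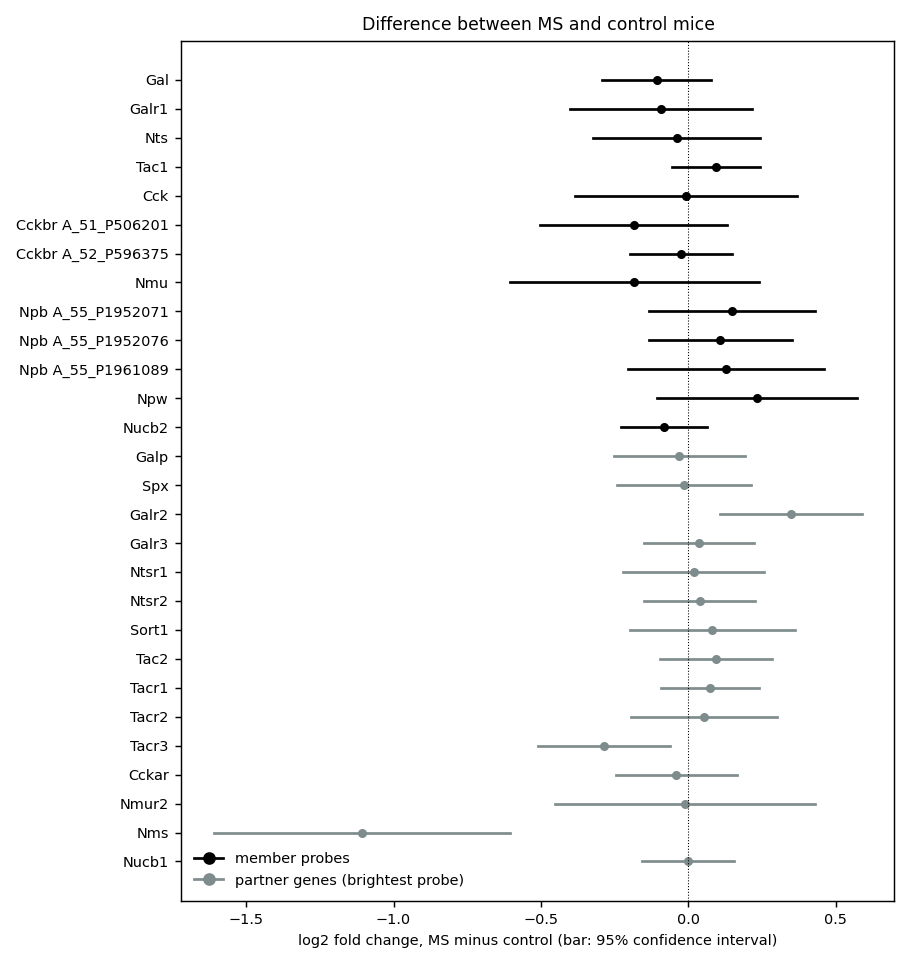
Log2 fold change (MS minus control) of the 13 member probes in black and of the 15 tested partner genes in gray, with bars for the 95% confidence interval of limma and the dotted line at 0. The bars of all 13 member probes cross 0, and those of *Galr2*, *Tacr3* and *Nms* do not, each with an adjusted p of 0.989.

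The array files place 2 MS and 2 control mice in each row of the slide, so every difference could be taken within a row. *Galr1* was lower in MS mice in row 1, where MS 5.3 and 7.2 read -2.91 and -2.83 and control 8.2 and 8.4 read -2.42 and -2.47. In row 2 the order was the other way round, with -2.38 and -2.64 in MS 7.1 and 7.6 and -2.71 and -2.78 in control 6.2 and 8.5. The within-row differences of *Galr1* were -0.42 and 0.24, each from 2 mice against 2.

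*Nmu* ran the opposite way, with a difference of 0.27 in row 1, where MS 5.3 and 7.2 read -2.80 and -2.94 and control 8.2 and 8.4 read -3.28 and -3.01. In row 2 it was -0.64, with -3.35 and -3.23 in MS 7.1 and 7.6 and -2.49 and -2.81 in control 6.2 and 8.5. An interaction of row and group, added after the values had been seen, gave an unadjusted p of 0.00504 for *Galr1* and 0.00435 for *Nmu*, with an adjusted p of 0.941 for both in limma. Over all probes, 1498 (4.01%) had an unadjusted p under 0.05 for this interaction and 2 had an adjusted p under 0.05, neither of them a member. *Npw* was higher in MS mice by 0.25 in row 1 and by 0.22 in row 2. *Gal*, *Nucb2* and both *Cckbr* probes were lower and *Tac1* was higher in MS mice in both rows, on average, while *Nts*, *Cck* and *Npb* changed sign between the rows.

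**Figure D3:**
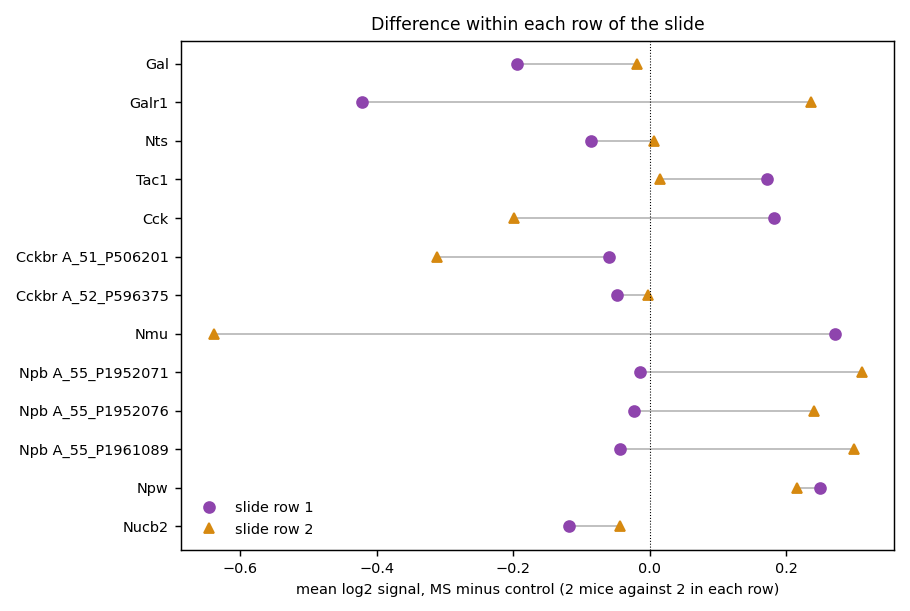
Mean difference between 2 MS and 2 control mice (log2 signal, MS minus control) for each member probe, in row 1 of the slide as circles and in row 2 as triangles, with the dotted line at 0. *Nmu* and *Galr1* lie farthest apart between the rows, at 0.27 and -0.64 and at -0.42 and 0.24.

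Each mouse was left out in turn. *Gal*, *Galr1*, *Nmu* and *Nucb2* stayed below 0 and *Tac1* and *Npw* above 0 whichever mouse was left out, as did the junction probe of *Cckbr* below 0 and 2 of the *Npb* probes above it. The difference of *Npw* ranged between 0.12 and 0.33, that of *Gal* between -0.15 and -0.04 and that of *Nmu* between -0.31 and -0.05. No single mouse set the ends of all probes: MS 7.2 was the lowest mouse in 3 probes and the highest in 2, control 8.5 was the lowest in 4 and the highest in 1, and MS 7.6 and control 6.2 were each the highest in 4. The 4 of control 8.5 and the 4 of MS 7.6 include the 3 *Npb* probes, of which 2 overlap and are not separate evidence.

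**Figure D4:**
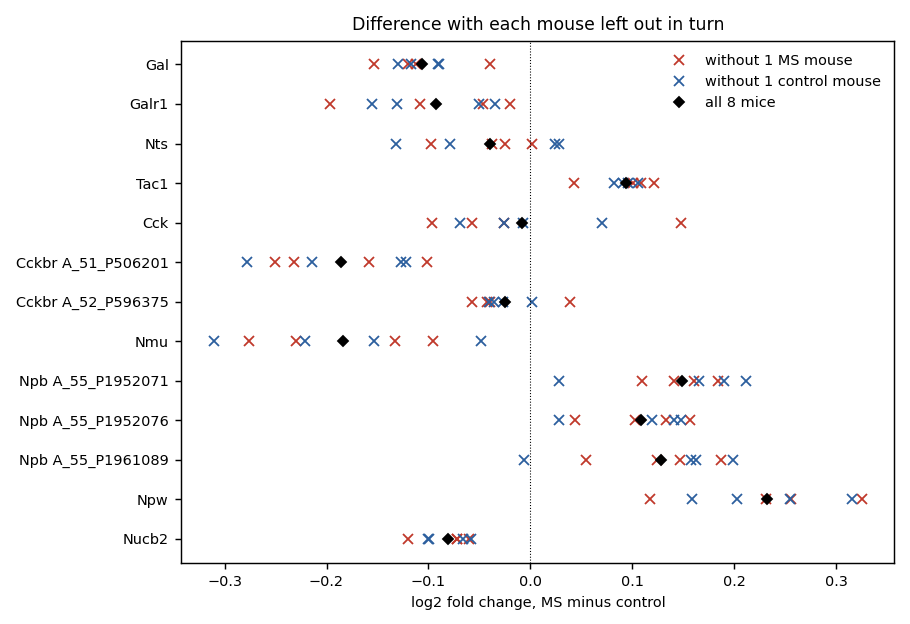
Log2 fold change (MS minus control) of each member probe with all 8 mice as black diamonds, without 1 MS mouse as red crosses and without 1 control mouse as blue crosses, with the dotted line at 0. The *Npb* values nearest to 0 and the highest *Cck* value are those without control 8.5 and without MS 7.1.

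For the 3 members that varied most, the genes with the most similar course over the 8 mice were looked up among 17313 genes, by the mean absolute difference of log2 values after each gene was centered on its own mean. For *Npw*, whose own mean distance from its mean was 0.19, these were *Nhlh2* (0.05), *Scgb2b20* (0.07) and *Irx3* (0.07). *Nhlh2*, a transcription factor, read -0.68, -1.04, -0.45 and -0.91 in MS 5.3, 7.1, 7.2 and 7.6, against -1.01, -0.80, -1.01 and -1.21 in control 6.2, 8.2, 8.4 and 8.5, with MS 7.2 highest and control 8.5 lowest as for *Npw*. For *Cck*, at 0.17, they were *Serinc2* (0.05), *Tex28* (0.06) and *Foxi1* (0.08). For *Nmu*, at 0.23, they were *Lratd2* (0.09), *Rasef* (0.10) and *Creb3l4* (0.10). *Lratd2* was dim and well above background on 6 arrays only, while the other similar genes were so on all 8. These likenesses describe 8 arrays and were selected from many genes.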

How the data were processed

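The HT arrays of 8 mice were analysed, with groups from the sample labels. The authors deposited the scanner output, in which each spot has a processed intensity with background subtracted (Agilent Feature Extraction 10.10.1.1, build mm9), and a table of log2 values, with normalization not given in the sources used here. Arrays hold no counts, and the number of arrays limits the precision.

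The software was limma 3.58.1 under R 4.3.3, with the package data.table (version 1.17.8) for reading. Control spots and 1357 outlier spot readings were left out, log2 intensities were averaged per probe, and each array's 75th percentile was taken off. A probe entered the test if at least 4 of 8 arrays had it well above background. MS was set against control in limma (functions lmFit and eBayes, two-sided), and p-values were adjusted by Benjamini-Hochberg over 37314 probes with a threshold of 0.05. The procedure was tested on simulated data. Single probes were also given an exact permutation test. The row of the slide was read from the array position in the file names.

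Named are all member probes, partner genes from a fixed list of 18 (the 2 of smallest p in each direction always, the others by range), and 3 genes of most similar course for each of the 3 most variable members. Probes were named from the array files, or by accession through RefSeq genes. Members, lists and tests were chosen with earlier results of these data known. The marker lists of neurons, striatum, thalamus, choroid plexus and cortex summed to 268 to 287, 20.7 to 20.9, 21.6 to 25.2, 6.38 to 8.10 and 0.27 to 0.36 in MS mice, against 242 to 283, 20.5 to 22.0, 20.7 to 22.6, 5.56 to 8.10 and 0.29 to 0.34 in control mice. Alternatives were quantile or median scaling, normexp with an offset of 50, the authors' table, other background filters, the slide row as a block or alone, the first part of the mouse number as a random effect, array weights, a robust variance trend, a threshold of 0.10 and each mouse left out in turn.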

Additional observations from a re-analysis of the deposited data

How the results depend on the processing

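In 21 other settings, 0 member probes and 0 partner genes passed the test. Over all probes, the count of 0 became 1 in row 2 of the slide alone and 1 with the first part of the mouse number as a random effect, neither of them a member or a partner. Of 271 log2 fold changes of member probes, 254 kept their sign, and the smallest adjusted p was 0.583. *Gal*, *Tac1*, *Npw*, *Nucb2* and the junction probe of *Cckbr* kept their sign in every setting that gave a value. The 17 changes of sign were as follows. In row 1 alone, *Cck* was at 0.18, *Nmu* at 0.27 and the 3 *Npb* probes at -0.0136, -0.0230 and -0.0431. In row 2 alone, *Galr1* was at 0.24 and *Nts* at 0.0068. *Cck* was at 0.0126 with median scaling and at 0.00137 with the random effect. With mice left out, *Cck* was at 0.15 without MS 7.1 and at 0.0704 without control 6.2, in a range that began at -0.0969. *Nts* ranged between -0.132 and 0.0277, with 0.00112 without MS 7.2, 0.0243 without control 6.2 and 0.0277 without control 8.4. *Cckbr* A_52_P596375 ranged between -0.0577 and 0.0384, with the positive values 0.0384 without MS 7.2 and 0.00161 without control 8.5. *Npb* A_55_P1961089 ranged between -0.00599, without control 8.5, and 0.198. The cause was not tested. *Galr2*, *Tac2*, *Tacr3* and *Nms* kept their sign in all 21, and *Nms* ranged between -1.44 in row 1 alone and -0.66 with normexp and quantile normalization. *Npw* and the junction probe of *Cckbr* are not among the 34970 probes of the authors' table that were used, so that setting gave no value for them. No paired analysis was possible because the groups share no replicate number.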
